A study of Mus musculus with 2 samples.

Results

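The set comprises 10 genes that mark the maturation of dendritic cells or form the chemokine axis of the receptor CCR4, namely Ccr7, Fscn1, Il12b, Il4i1, Cacnb3, Cd40, Relb, Ccl17, Ccl22 and Ccr4. They were taken by symbol, and all 10 were found among the 32245 gene symbols counted in both libraries. The sitagliptin library came from wild-type mice that bore MC38-OVA tumours and were fed sitagliptin, which blocks the peptidase DPP4, in their diet. The control library came from wild-type mice with the same tumours on the control diet. MC38-OVA is a mouse colon carcinoma line that carries the model antigen ovalbumin, and CD45+ leukocytes were enriched from the tumours with magnetic beads before droplet 5′ single-cell RNA-seq. Each diet has 1 library. The number of mice behind it, their age and their sex are not given. No test of the diet was therefore possible, and each interval covers counting error alone.

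Dendritic cells capture antigen in tissue and present it to T cells. Conventional type 1 dendritic cells (cDC1) and type 2 dendritic cells (cDC2) can mature, and mature cells reorganise their cytoskeleton, display costimulatory molecules and follow CCR7 ligands towards lymph nodes. Plasmacytoid dendritic cells (pDC) are a separate lineage known for type I interferon. CCL17 and CCL22 are secreted chemokines that attract cells bearing CCR4, a receptor known from regulatory T cells and other CD4+ T cells. DPP4, the target of sitagliptin, trims the amino terminus of several chemokines, CCL22 among them.

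The genes of the ligands lie close together. In the GENCODE vM21 annotation of mouse build GRCm38, Ccl22 (ENSMUSG00000031779) is a protein-coding gene on the plus strand of chromosome 8, from 94745590 to 94751699. Ccl17 (ENSMUSG00000031780) lies on the same strand, from 94810453 to 94812036, so that their starts are 64863 bases apart. The 250 bases before the RefSeq start of each gene (GRCm38.p6) are shown because the results turn on these ligands, which share a receptor and a genomic neighbourhood. Capitals mark a TATA-like TTAAATA shared by both windows and, in Ccl17, matches to the STAT-type palindromes TTCNNNGAA and TTCNNNNGAA.

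Ccl22, chr8:94745434-94745683, plus strand: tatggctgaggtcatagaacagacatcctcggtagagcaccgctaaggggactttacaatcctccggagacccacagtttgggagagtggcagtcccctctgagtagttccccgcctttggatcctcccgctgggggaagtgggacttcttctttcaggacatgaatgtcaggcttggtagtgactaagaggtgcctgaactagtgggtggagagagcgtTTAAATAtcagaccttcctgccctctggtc

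Ccl17, chr8:94810203-94810452, plus strand: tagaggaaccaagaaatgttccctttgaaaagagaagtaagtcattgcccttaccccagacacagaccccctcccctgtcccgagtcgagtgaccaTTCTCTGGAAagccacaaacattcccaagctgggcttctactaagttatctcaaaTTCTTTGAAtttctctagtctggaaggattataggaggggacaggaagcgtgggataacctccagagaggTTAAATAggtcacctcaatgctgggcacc

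TTAAATA stood 30 to 24 bases before the start in Ccl22 and 29 to 23 bases before it in Ccl17. It occurred on either strand in 4.18% of the 32851 windows of this length in the RefSeq table. TTCNNNNGAA stood 154 to 145 bases before the Ccl17 start and TTCNNNGAA 99 to 91 bases before it, against 5.85% and 7.02% of all windows. A search for the NF-kappaB consensus, which is in 3.90% of windows, found no match in the 7 members whose windows the table holds (Cacnb3, Ccl17, Ccl22, Ccr4, Fscn1, Il12b and Il4i1). The matches are descriptions of letters and do not show binding. GENCODE places the Ccl22 start 94 bases before the RefSeq start, and the Ccl17 starts are the same in both annotations.

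The sitagliptin library held 9766 barcodes with a median of 5158.5 UMIs (unique molecular identifiers, 1 per captured RNA molecule), and the control library 8694 barcodes with a median of 5074 UMIs. After removal of the 6% with the highest doublet scores, 9180 and 8172 barcodes remained. Some 132 barcode sequences occurred in both libraries, 1 of them in a mature DC-like cell of the sitagliptin library and 1 in a cDC2-like cell of the control library. Cells were assigned to classes by UMIs of marker genes, none of them a member, and names ending in "-like" refer to these calls. In the sitagliptin library 33 mature DC-like, 55 cDC2-like, 25 cDC1-like and 18 pDC-like cells were called, against 41, 41, 15 and 12 in the control library. Dendritic cells of the 4 subsets made up 1.43% of kept barcodes in the sitagliptin library and 1.33% in the control library.

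Mature DC-like cells were 25.2% of the dendritic cells in the sitagliptin library and 37.6% in the control library, a ratio of 0.670 with a counting interval of 0.457 to 0.981. The interval reached past 1 without the removal of high doublet scores (0.703, 0.492 to 1.005) and with a stricter minimum of marker genes (0.747, 0.431 to 1.29). With Leiden clusters in place of marker calls, the interval stayed below 1 (0.6896, 0.5004 to 0.9505). The Leiden clusters called no pDC-like cells, so that share is of the other subsets. Members were not excluded from the genes that built these clusters. Of all kept barcodes, mature DC-like cells were 0.359% in the sitagliptin library and 0.502% in the control library, a ratio of 0.716 whose interval of 0.453 to 1.13 included 1. The ratios of the other subsets had intervals that included 1, with cDC1-like cells at 1.39 (0.771 to 2.50), cDC2-like cells at 1.12 (0.815 to 1.53) and pDC-like cells at 1.25 (0.629 to 2.48). The removal of high doublet scores took 13.2% of the mature DC-like calls in the sitagliptin library and 6.82% in the control library. Barcodes set apart as mixed, by rules given below, held 31.8% of all Ccr7 UMIs in the sitagliptin library and 23.3% in the control library. Mature DC-like cells held 21.0% and 30.6% of them. For Relb the mixed barcodes held 12.0% and 11.9%. Over all kept barcodes the ratio of Ccr7 levels was 0.995 (0.917 to 1.08). The part of the mixed calls in the share of mature DC-like cells was not tested. The 7 genes used to call mature DC-like cells were summed per 1000000 UMIs of the class (CPM). They reached 1242 and 995 CPM there in the sitagliptin and control libraries, and 3.52 and 2.80 CPM in macrophage-like cells. This gap follows from the calls, since barcodes that met the mature DC rule could not be called macrophage-like. The leading genes of each dendritic subset by fold held no listed marker of another class. The calls limit this in advance too, since barcodes that met the rules of more than 1 class were set apart. C1q genes, which mark macrophages, summed to 124 CPM in mature DC-like cells of the sitagliptin library and 69.2 CPM in those of the control library. In T cell-like cells they summed to 158 and 145 CPM. Both classes exclude barcodes with C1q genes above 1000 CPM, which limits these sums in advance. The part of C1q RNA in any difference below was not tested.

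**Figure D1:**
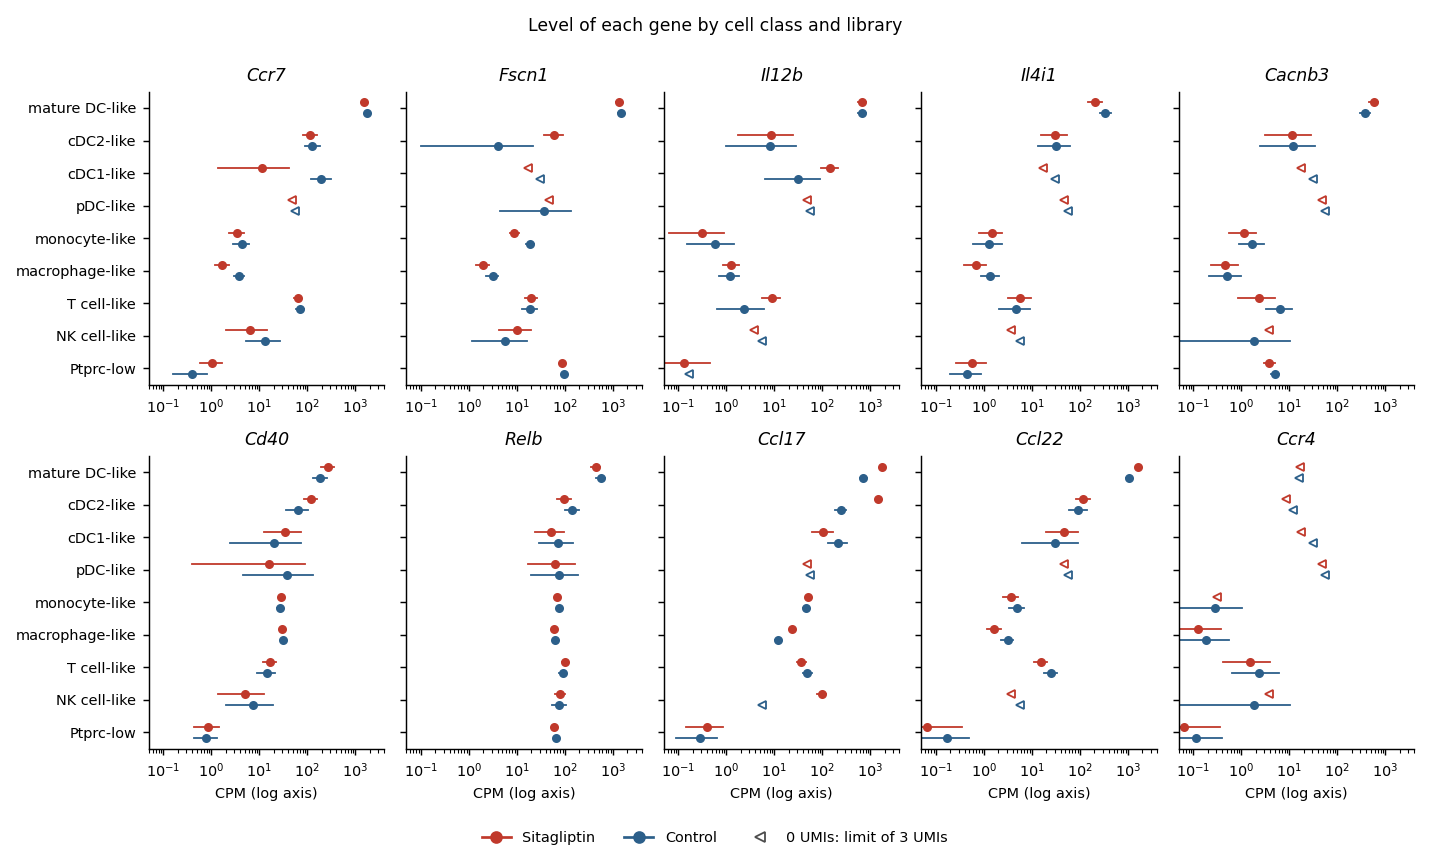
Level of each of the 10 genes in CPM (log axis) by cell class, with the sitagliptin library above the control library in each pair; lines are exact Poisson 95% intervals and open triangles mark 0 UMIs, drawn at the level 3 UMIs would give. Mature DC-like cells had the highest level of 9 of the 10 genes in both libraries, and Ccr4 was near the limit of counting in every class.

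Every member but Ccr4 had its highest level in mature DC-like cells, in both libraries. The step down to the next class differed between genes, as the plot of levels by class shows. For Cacnb3, cDC2-like cells had 11.2 CPM in the sitagliptin library and 11.9 CPM in the control library, from 4 and 3 UMIs. The cDC1-like and pDC-like cells held no Cacnb3 UMI, and in the pDC-like cells 3 UMIs would have been 47.6 CPM in the sitagliptin library and 55.3 CPM in the control library, so the next class could not be told. For Ccr7 the level in mature DC-like cells was 13.4-fold that of the next class in the sitagliptin library and 9.05-fold in the control library. For Cd40 the same step was 2.26-fold and 2.93-fold, with cDC2-like cells second in both. The steps of Ccr7 and Cd40 exceeded the counting intervals. The step of Ccl17 was small in the sitagliptin library, where mature DC-like cells exceeded cDC2-like cells 1.19-fold and the intervals overlapped. In the control library that step was 2.94-fold without overlap.

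Members were detected together in the same cells. A mature DC-like cell held UMIs of a median of 7 of the 10 genes in both libraries. At least 5 were seen in 29 of 33 such cells of the sitagliptin library and in 35 of 41 of the control library. In cDC2-like cells the median was 2 genes in the sitagliptin library and 1 in the control library. At least 5 were seen in 4 of 55 and 2 of 41 of those cells, and none in 11 and 15.

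The migration genes were near the same level on both diets in mature DC-like cells. Ccr7, the receptor for CCL19 and CCL21 that guides mature dendritic cells to lymph nodes, had 271 UMIs or 1529 CPM in the sitagliptin library and 332 UMIs or 1767 CPM in the control library. The ratio was 0.865 (0.734 to 1.02), and 32 of 33 and 38 of 41 cells held a UMI. Fscn1, which encodes the actin-bundling protein fascin, had 1309 CPM in the sitagliptin library and 1469 CPM in the control library, a ratio of 0.891 (0.745 to 1.07). Of the mature DC-like cells, 32 of 33 on sitagliptin and 35 of 41 on control held Fscn1 UMIs. Both intervals included 1. In the sitagliptin library 31 of the 32 cells with Ccr7 also had Fscn1, and in the control library 33 of 38.

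Outside mature DC-like cells the migration genes parted. Ccr7 was present in T cell-like cells, a known feature of naive and central memory T cells, at 62.4 CPM in the sitagliptin library and 69.3 CPM in the control library. T cell-like cells with Cd8a or Cd8b1 UMIs but none of Foxp3 or Cd4 had 64.5 and 69.5 CPM. Those with Cd4 UMIs but none of Foxp3, Cd8a or Cd8b1 numbered only 23 and 19 and had 153 and 159 CPM. In cDC2-like cells Ccr7 stood at 114 and 127 CPM, and 24 of the 32 control UMIs came from 1 barcode. The ratio of 0.899 became 2.62 without the richest barcode of each library. In cDC1-like cells there were 2 Ccr7 UMIs in the sitagliptin library and 19 in the control library, 13 of them in 1 barcode.

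Fscn1 was second highest in Ptprc-low cells, which have little RNA of the gene for CD45 and were kept apart from the leukocyte classes, at 87.8 CPM in the sitagliptin library and 93.5 CPM in the control library. They held 62.3% and 64.3% of all Fscn1 UMIs. Ptprc-low cells were 7.49% of kept barcodes in the sitagliptin library and 12.6% in the control library. In monocyte-like cells Fscn1 had 8.88 CPM in the sitagliptin library and 18.8 CPM in the control library (ratio 0.472). The part of the Ptprc-low share in that difference was not tested. In cDC2-like cells there were 21 Fscn1 UMIs in the sitagliptin library, 13 of them in 1 barcode, and 1 in the control library, a ratio of 14.7 with an interval of 2.37 to 610. No Fscn1 UMI was seen in the 25 and 15 cDC1-like cells.

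Among the secreted products in mature DC-like cells, Il12b had near equal levels on both diets and Il4i1 was lower in the sitagliptin library. A difference between these ratios was not tested. Il12b, which encodes the p40 subunit shared by IL-12 and IL-23, had 118 UMIs in the sitagliptin library and 125 in the control library. These were 666 and 665 CPM, a ratio of 1.001 (0.772 to 1.30). Il12b UMIs were uneven between cells, since 18 cells held them in each library and the 3 richest cells gave 59.3% of the UMIs in the sitagliptin library and 51.2% in the control library. Il4i1, which encodes a secreted amino acid oxidase that acts on phenylalanine, had 37 and 64 UMIs, or 209 and 341 CPM. Its ratio was 0.613 (0.397 to 0.933), while 19 of 33 and 24 of 41 cells held a UMI. With every cell reduced at random to 2000 UMIs, the share of mature DC-like cells with Il4i1 was 24.2% in the sitagliptin library and 43.9% in the control library. With Leiden clusters in place of marker calls, the Il4i1 ratio was 0.703.

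Il12b was also read in cDC1-like cells, with 25 UMIs or 143 CPM in the sitagliptin library and 3 UMIs or 30.8 CPM in the control library. One barcode gave 17 of the 25. A single T cell-like barcode of the sitagliptin library held all 23 Il12b UMIs of that class, against 4 UMIs in 4 cells in the control library. Barcodes that met the rules of more than 1 class were set apart as mixed. So were dendritic and lymphocyte calls with C1q genes above 1000 CPM, and dendritic calls with more than 1 T cell gene UMI. Mixed barcodes held 45.0% of all Il12b UMIs in the sitagliptin library and 14.1% in the control library. In the sitagliptin library they came from 18 of 533 mixed barcodes, and 2 of these gave 101 and 45 of the 222 UMIs.

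Cd40 and Relb were read in every class plotted, in both libraries. Cd40, the receptor for CD40 ligand of activated T cells, had 265 CPM in mature DC-like cells of the sitagliptin library and 186 CPM in those of the control library, a ratio of 1.42 (0.900 to 2.27). A Cd40 UMI was seen in 21 of 33 and 17 of 41 cells. In cDC2-like cells Cd40 had 117 CPM in the sitagliptin library and 63.6 CPM in the control library, a ratio of 1.84 (1.01 to 3.51), with UMIs in 25 of 55 and 9 of 41 cells. The cDC2-like ratio was 1.19 after thinning and 1.06 with Leiden clusters. In macrophage-like cells it was 29.9 and 31.6 CPM and in monocyte-like cells 28.3 and 26.8 CPM.

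Relb, which encodes a subunit of the alternative NF-kappaB pathway needed for dendritic cell development, had 435 CPM in mature DC-like cells of the sitagliptin library and 554 CPM in those of the control library. The ratio of 0.785 had an interval of 0.577 to 1.06. Outside mature DC-like cells Relb was, for example, at 98.5 and 89.9 CPM in T cell-like cells and at 58.5 and 61.4 CPM in macrophage-like cells. Cacnb3, which encodes a beta subunit of voltage-gated calcium channels, had 570 CPM in mature DC-like cells of the sitagliptin library and 378 CPM in the control library, a ratio of 1.51 (1.10 to 2.07). A Cacnb3 UMI was present in 30 of 33 and 31 of 41 cells, and after thinning in 66.7% and 65.9%. With Leiden clusters the Cacnb3 ratio was 1.02.

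Both CCR4 ligands were higher in mature DC-like cells of the sitagliptin library, Ccl22 by little more than Cacnb3. Ccl17 had 308 UMIs or 1738 CPM in mature DC-like cells of the sitagliptin library and 134 UMIs or 713 CPM in those of the control library. The ratio was 2.44 (1.98 to 3.01), but the share of cells with a UMI was close, at 20 of 33 and 23 of 41. After thinning the shares were 42.4% in the sitagliptin library and 39.0% in the control library. At least 5 Ccl17 UMIs were seen in 10 of 33 and 6 of 41 cells. The 3 richest cells gave 68.8% of the UMIs in the sitagliptin library and 49.3% in the control library, with up to 96 and 28 in a single cell. Without the richest barcode of each library the ratio was 2.13, and with a stricter minimum of marker genes it was 1.49.

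Ccl22 had 293 UMIs or 1654 CPM in mature DC-like cells of the sitagliptin library and 198 UMIs or 1054 CPM in those of the control library. The ratio was 1.57 (1.31 to 1.89). A Ccl22 UMI was seen in 26 of 33 and 33 of 41 cells, and after thinning in 72.7% and 73.2%. At least 5 UMIs were seen in 17 and 14 cells. The ratio was 1.44 without the richest barcode of each library, 1.13 after thinning and 1.32 with Leiden clusters, all under 1.5. Under each of those settings Cacnb3 or Cd40 had a higher ratio than Ccl22. Ptprc-low cells, called only at 8000 UMIs or more, had median depths of 21327 and 16354 UMIs. Ccl22 UMIs were seen in 0.145% and 0.292% of them and Ccl17 UMIs in 0.872% and 0.486%. The background of free RNA was not estimated. Median depths of mature DC-like cells were 4740 and 3806 UMIs. The plot of UMIs per barcode shows that the libraries overlapped over most of their range and that the sitagliptin library reached higher single values.

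**Figure D2:**
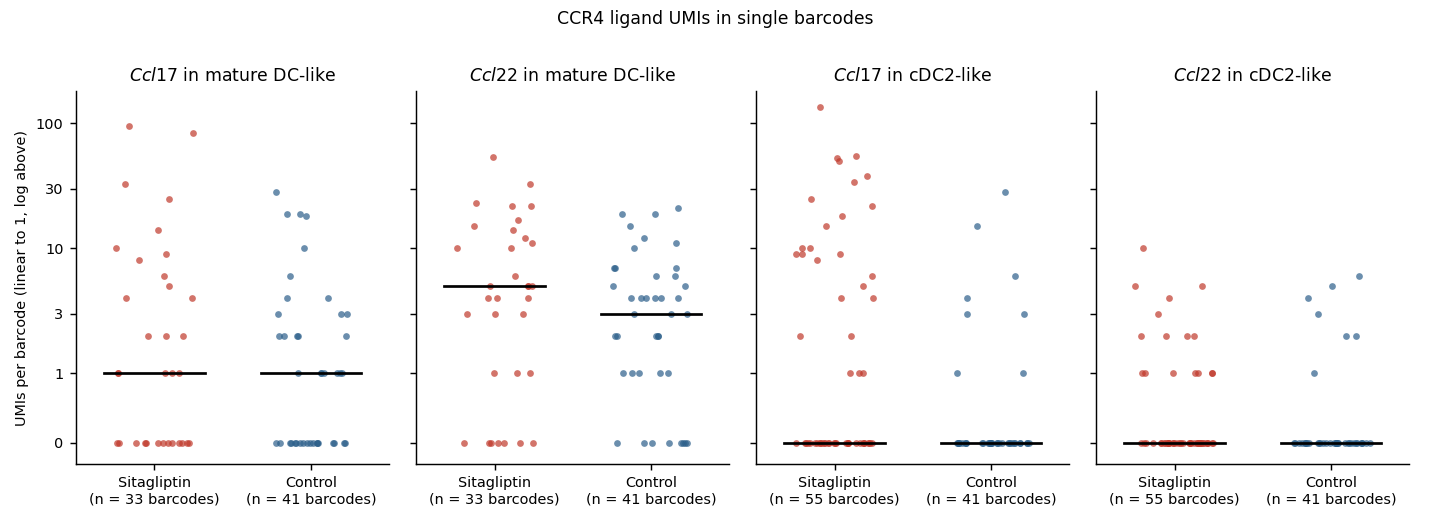
UMIs of Ccl17 and Ccl22 in each mature DC-like and cDC2-like barcode (vertical axis, linear to 1 UMI and logarithmic above), with the sitagliptin library left of the control library and the median as a bar. The highest Ccl17 values were 96 and 28 UMIs in mature DC-like cells and 134 and 28 UMIs in cDC2-like cells of the sitagliptin and control libraries.

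In mature DC-like cells the ligands were found in overlapping sets of cells. All 20 cells with Ccl17 in the sitagliptin library also had Ccl22, and 19 of 23 did in the control library. Of the cells without Ccl17, 6 of 13 in the sitagliptin library and 14 of 18 in the control library had Ccl22. Ccl22 without Ccl17 was seen in the other 6 of 26 cells with Ccl22 in the sitagliptin library and 14 of 33 in the control library. In cDC2-like cells Ccl22 was seen in 10 of 25 Ccl17-bearing cells of the sitagliptin library and 4 of 8 of the control library. Ccr7 was present in 6 of those 25 and 3 of those 8. Of the cDC2-like cells without Ccl17, 6 of 30 in the sitagliptin library and 3 of 33 in the control library had Ccl22. Ccr7 was present in 4 of those 30 and 3 of those 33.

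In cDC2-like cells Ccl17 had 525 UMIs or 1465 CPM in the sitagliptin library and 61 UMIs or 242 CPM in the control library. The ratio was 6.04 (4.63 to 8.01). UMIs were seen in 25 of 55 and 8 of 41 cells, and at least 5 in 18 and 3. With the richest barcode of each library left out, the ratio was 8.56. The mean of per-cell CPM gave a ratio of 3.76 and thinning a ratio of 2.96. After thinning, 36.4% and 19.5% of cells held a UMI, a ratio of 1.86 whose interval of 0.913 to 3.80 included 1. Leiden clusters, which called 151 and 82 cells cDC2-like, gave a ratio of 1.47. Ccl22 in cDC2-like cells had 117 and 91.4 CPM, a ratio of 1.28 (0.754 to 2.23) that turned to 0.702 with Leiden clusters.

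Ccl17 UMIs were also found in cells of other classes. Macrophage-like cells had 23.5 CPM in the sitagliptin library and 12.0 CPM in the control library, a ratio of 1.96 (1.66 to 2.32), from 72 of 2477 and 43 of 2007 cells. After thinning 1.45% and 1.40% of them held a UMI, and the ratio was 1.32, as against 1.40 with Leiden clusters. Monocyte-like cells had 50.5 and 45.0 CPM, a ratio of 1.12 that turned to 0.499 with the stricter minimum and 0.235 with Leiden clusters. One barcode gave 170 of their 489 UMIs in the sitagliptin library. Without the richest barcode of each library the levels were 33.0 CPM in the sitagliptin library and 36.1 CPM in the control library. NK cell-like barcodes held 77 Ccl17 UMIs in the sitagliptin library, 76 of them in 1 barcode, and 0 in the control library. Cells that no marker rule assigned, with a median of 2663 UMIs on sitagliptin and 2634.5 UMIs on control, held 26.5% and 35.3% of all Ccl17 UMIs. The 4 dendritic subsets held 25.7% and 14.6%.

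For Ccl22, the dendritic subsets held 36.8% of all UMIs in the sitagliptin library and 37.4% in the control library. Macrophage-like cells had 39 and 50 Ccl22 UMIs, or 1.65 and 3.11 CPM, with 18 of the control UMIs in 1 barcode. The ratio of 0.532 became 0.766 without the richest barcode of each library.

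Ccr4, the receptor for both ligands, was near the limit of detection. In all kept barcodes 23 UMIs were counted in the sitagliptin library and 38 in the control library. T cell-like cells had 4 in each, at 1.52 and 2.35 CPM. T cell-like cells with a Foxp3 UMI, the transcription factor of regulatory T cells, numbered 21 and 7 and held no Ccr4 UMI, which at 3 UMIs allows up to 16.7 and 52.4 CPM. Ccr8, another chemokine receptor of regulatory T cells, had 5 and 3 UMIs in those cells. No Ccr4 UMI was seen in mature DC-like cells, and with 0 of 33 and 0 of 41 cells the limit of 3 counts is a share of 9.09% and 7.32%. Over all kept barcodes Ccr4 had 0.324 CPM in the sitagliptin library and 0.643 CPM in the control library, a ratio of 0.505 (0.287 to 0.869). Most of these UMIs lay in mixed barcodes (9 and 12) and unassigned barcodes (6 and 14), and no named class had more than 4 in either library, too few to compare a level within a class.

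**Figure D3:**
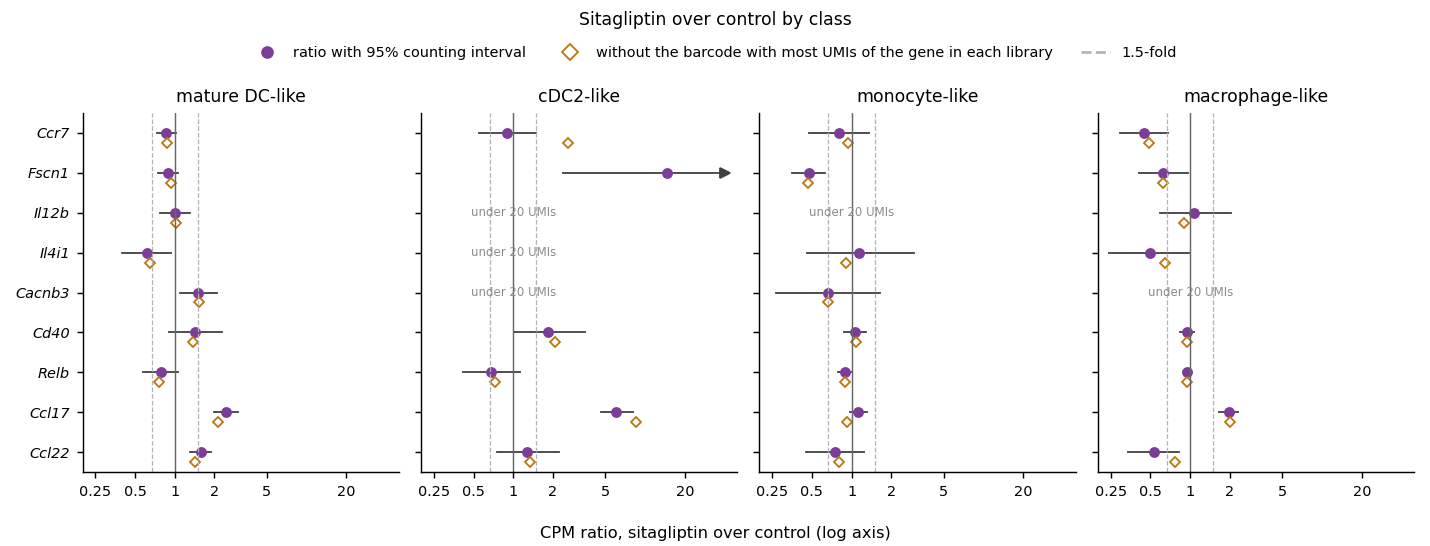
CPM ratio of the sitagliptin over the control library (log axis) for each gene except Ccr4 in 4 classes, with 95% counting intervals as lines, dashed lines at 1.5-fold and diamonds for the ratio without the richest barcode of each library (none for Fscn1 in cDC2-like cells, whose only control UMI is then lost). Ccl17 lay past 1.5-fold in mature DC-like (2.44), cDC2-like (6.04) and macrophage-like cells (1.96) and at 1.12 in monocyte-like cells.

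Counts past 1.5-fold were set beside those of all genes whose UMIs in the class, summed over both libraries, reached 20. In mature DC-like cells 9 of the 10 members passed this minimum, and 3 were higher by at least 1.5-fold in the sitagliptin library (Ccl17, Ccl22 and Cacnb3), against 11.5% of 2816 genes. One was lower by as much (Il4i1), against 16.4%. The median log2 ratio of the 9 was 0.0013, and that of all 2816 genes was -0.05. In cDC2-like cells 6 members passed, of which 3 were higher (Fscn1, Ccl17 and Cd40) and 0 lower, where 11.5% and 18.5% of 4364 genes lay past those limits. Fscn1 passed the minimum only through the sitagliptin library, where it was high. Without it, 2 of 5 members were higher and their median log2 ratio was 0.36, as against 0.62 with it and -0.06 for all genes.

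In macrophage-like cells 8 members passed, 1 higher (Ccl17) and 4 lower (Ccr7, Fscn1, Il4i1 and Ccl22), where 4.16% and 3.85% of 12759 genes lay past those limits. The 4 lower members had few UMIs there, between 16 and 46 in the sitagliptin library and between 22 and 61 in the control library. Their levels were at most 1.95 CPM in the sitagliptin library and 3.80 CPM in the control library. In monocyte-like cells 8 passed, 0 higher and 2 lower (Fscn1 and Cacnb3), where 3.30% and 19.3% of 11850 genes lay past those limits. Cacnb3 had only 11 UMIs there in the sitagliptin library and 12 in the control library. Its levels of 1.14 CPM (0.567 to 2.03) and 1.71 CPM (0.883 to 2.98) had overlapping intervals.

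Related gene lists were read in the same cells, and the plot of the lists gives each gene's ratio. The list values are given for the marker calls alone. In mature DC-like cells 11 of 12 antigen presentation genes passed the minimum. All 11 had ratios below 1, with a median log2 ratio of -0.32. Of these 11, 3 were lower by at least 1.5-fold, against 16.4% of 2816 genes. H2-Ab1, an MHC class II chain, had 384 CPM in the sitagliptin library and 852 CPM in the control library, a ratio of 0.451 (0.334 to 0.602). H2-Eb1 had 1236 and 2214 CPM, and Cd74, the invariant chain, had 6789 and 9485 CPM. The list named cytoskeleton and migration held Marcksl1, Marcks, Samsn1, Tbc1d4, Anxa3, Tmem123, Serpinb6b, Cd63, Gadd45b and Epsti1. All 10 had ratios above 1, with a median log2 ratio of 0.41, and 2 were higher by at least 1.5-fold, against 11.5% of 2816 genes. The name is only a label, and the members Ccr7 and Fscn1 had ratios below 1 with intervals that included 1. Samsn1, an adaptor protein gene, had 1055 and 596 CPM, a ratio of 1.77 (1.39 to 2.26), and Marcks, an actin-binding protein gene, 700 and 436 CPM, a ratio of 1.60 (1.20 to 2.15).

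Of the NF-kappaB genes, 11 of 13 passed in mature DC-like cells, 8 with ratios above 1 and none past 1.5-fold, with a median log2 ratio of 0.19. For Rel the levels were 2173 CPM in the sitagliptin library and 2086 CPM in the control library. Of the costimulation and checkpoint ligands 7 of 9 passed, 4 above 1 and 3 below, with a median of 0.02. Cd86, a ligand of CD28, had 655 and 538 CPM, and Cd274, the gene for PD-L1, had 982 and 1128 CPM. Of 12 further cytokines and chemokines 5 passed, and Il1b was the 1 past the limit, with 1789 and 3124 CPM, a ratio of 0.573 (0.498 to 0.658). Of all 2816 genes, 16.4% were lower by at least 1.5-fold. Of the genes listed as partners of the CCR7 and CCR4 axes, only Dpp4 passed, with 102 CPM in the sitagliptin library and 144 CPM in the control library (ratio 0.707, 0.367 to 1.33).

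In cDC2-like cells the lists lay otherwise. Antigen presentation genes had 10 ratios above 1 and 2 below, with a median log2 ratio of 0.26, and H2-Ab1 had 3770 CPM in the sitagliptin library and 2349 CPM in the control library. All 6 costimulation and checkpoint ligands that passed had ratios above 1, with a median of 0.54. Cd83, a surface marker of mature dendritic cells, had 396 and 191 CPM, a ratio of 2.08 (1.49 to 2.94). Cd274 had 511 and 338 CPM, and Pdcd1lg2, the gene for PD-L2, had 120 and 71.5 CPM. Of the NF-kappaB genes 11 passed, 7 with ratios above 1 and 4 below, with a median of 0.12. Of these 11, 2 were higher and 1 lower by at least 1.5-fold, against 11.5% and 18.5% of 4364 genes. Rel had 1677 and 1077 CPM (ratio 1.56) and Tnfaip3, an inhibitor of the pathway, 338 and 199 CPM (ratio 1.70), while Birc2, a ubiquitin ligase gene of the pathway, had 36.3 and 55.6 CPM (ratio 0.652, with an interval that included 1). A difference between mature DC-like and cDC2-like cells in these lists was not tested.

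**Figure D4:**
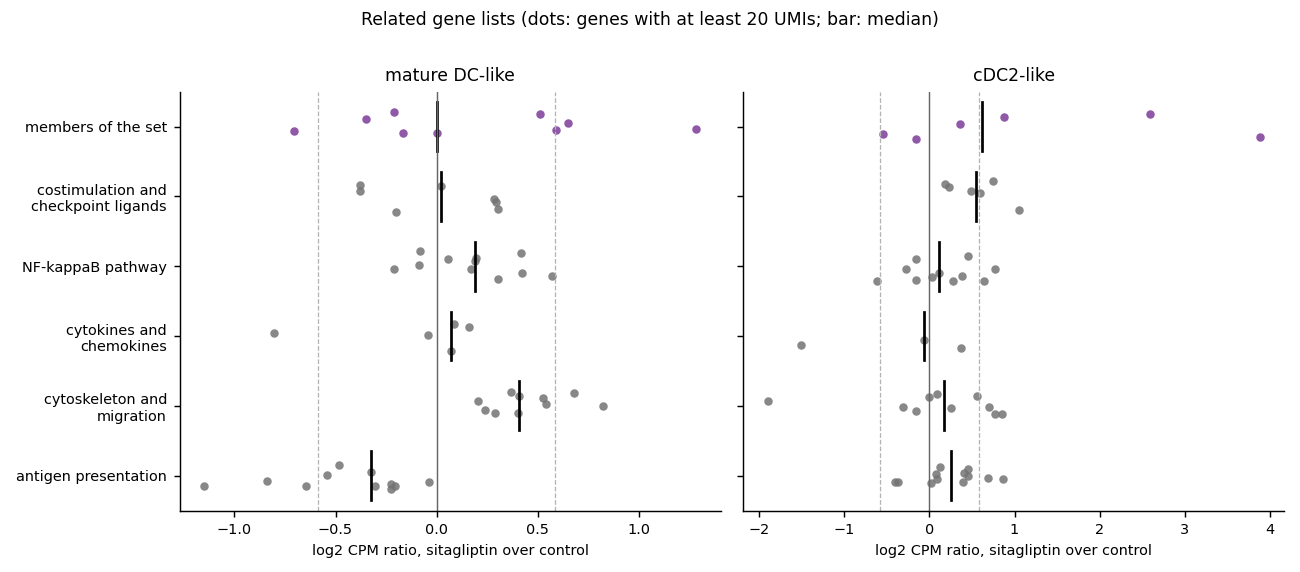
The log2 CPM ratio of the sitagliptin over the control library for each gene with at least 20 UMIs, by list, in mature DC-like (left) and cDC2-like cells (right); bars are medians and dashed lines 1.5-fold. Antigen presentation genes lay below 0 in mature DC-like cells (median -0.32) and mostly above 0 in cDC2-like cells (median 0.26).

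Genes with the most similar pattern were sought over 21 sums of a class in a library. The measure was Pearson's r of log2(CPM + 10). For Ccl22 these were Mmp25 (r = 0.985), Cd1d1 (0.946), Slc27a3 (0.938), Slc44a5 (0.938) and Tmem131 (0.937). For Ccl17 they were Cd1d1 (0.910), Mmp25 (0.898), Tmem131 (0.878), Etv3 (0.878) and Tmtc2 (0.875). For Ccr7 they were Mmp25 (0.926), Fancc (0.910), Adap1 (0.888), Kcnk6 (0.887) and Adam23 (0.879). Mmp25 encodes a membrane-anchored matrix metalloproteinase and Cd1d1 a lipid-presenting molecule. The points share libraries and depth, and mature DC-like cells supply the highest values. For Ccr4 the UMIs were too few for its nearest genes to be read.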

How the data were processed

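Both matrices, as the authors deposited them, hold unnormalized counts of UMIs by gene and barcode, and the lowest barcode total was 2001 UMIs. The kit was SeekOne DD for 5′ libraries, per the labels' protocols. Neither the aligner nor the genome build of the counts is named in the sources used here. No cell annotation was used. Genes were matched by symbol, and IDs that share a symbol were summed. Scrublet scores (scanpy 1.11.5, Python 3.11.15) marked 0 barcodes at their automatic threshold, and the 6% of each library with the highest scores were left out instead.

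Classes were called per barcode. Mature DC-like cells had UMIs of at least 2 of Apol7c, Nudt17, H2-M2, Bcl2l14, Slco5a1, Tmem150c and Cd200. The cDC1-like cells had Xcr1, Clec9a or Gcsam and at least 2 of these with Itgae, Cadm1 and Tlr3. The cDC2-like cells had Cd209a or Clec10a, a UMI of Flt3, Zbtb46, Kmo, H2-Oa or Btla, and at least 3 such UMIs. The pDC-like cells had at least 3 of Siglech, Klk1, Ccr9, Cox6a2, Ly6d, Pacsin1, Cd300c and Smim5. Macrophage-like cells had C1q genes at 2000 CPM or more and monocyte-like cells at most 1000 CPM. Ptprc-low cells had at most 100 CPM of Ptprc, at least 8000 UMIs and C1q genes at most 1000 CPM. A barcode meeting more than 1 rule was called mixed. Dendritic, T cell, NK cell, B cell and neutrophil calls with C1q genes above 1000 CPM were also called mixed. The same held for dendritic calls with more than 1 UMI of Cd3d, Cd3e, Cd3g and Trac together. These thresholds were set after the counts had been seen.

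UMIs were summed per class and library and divided by the class total (CPM), with exact Poisson 95% intervals. Ratios of CPM are sitagliptin over control with exact conditional binomial intervals, shares have exact Clopper-Pearson intervals and their ratios log-scale (Katz) intervals. Cells of 1 library share their source and are not replicates, so the intervals do not cover variation between mice or cells. For thinned values each cell was reduced at random to 2000 UMIs. A count of 0 was given the level of 3 UMIs, or for a share 3 cells, as its limit. The interval code was checked on simulated data. Leiden clusters named from the same markers, a stricter minimum, no doublet removal, other totals and other minimum counts were tried as alternatives. The variable genes that built the Leiden clusters were chosen without excluding the members. Named genes are the 10 members, list genes with at least 20 UMIs and the 5 nearest genes of Ccr7, Ccl17, Ccl22 and Ccr4. Members, lists and thresholds were chosen with earlier results of these data known. RefSeq promoter windows and GENCODE gene positions are on GRCm38, and no coordinate was taken from the deposited files.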

Additional observations from a re-analysis of the deposited data

Results flagged for a closer look

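For 3 genes, the diet ratios of different classes had counting intervals on opposite sides of 1. With 1 library per diet, none of these differences was tested. The Ccl22 ratio of the sitagliptin over the control library was 1.57 in mature DC-like cells, 0.532 in macrophage-like cells and 0.616 in T cell-like cells. The T cell-like UMIs came from 7 of 450 cells in the sitagliptin library and 15 of 311 in the control library, with 27 of 40 sitagliptin UMIs in 1 barcode, and the T cell-like ratio was 0.271 without the richest barcode of each library.

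The Fscn1 ratio was 14.7 in cDC2-like cells, 0.472 in monocyte-like cells and 0.627 in macrophage-like cells, and the first of these rests on 21 UMIs in the sitagliptin library and 1 in the control library. The Ccr7 ratio was 2.63 in Ptprc-low cells and 0.447 in macrophage-like cells. The Ptprc-low value rests on 16 UMIs in the sitagliptin library, 8 of them in 1 barcode, and 7 in the control library.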

How the results depend on the processing

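The counts of members past 1.5-fold depended on how cells were called and weighted. In mature DC-like cells the 3 higher members became 1 with the stricter marker minimum, 1 with Leiden clusters and 1 after thinning to 2000 UMIs, and the 1 lower member became 2 with the stricter minimum and 0 with Leiden clusters. In cDC2-like cells the 3 higher members became 0 with Leiden clusters and 1 after thinning, which also gave 1 lower member. In macrophage-like cells the 1 higher member became 0 with Leiden clusters and after thinning, and the 4 lower became 1 after thinning. In monocyte-like cells the 2 lower members became 4 with the stricter minimum, 0 with the mean of per-cell CPM, 1 after thinning and 1 with at least 50 UMIs. Thinning leaves fewer UMIs and weighs each cell alike, and the higher minimum leaves fewer genes. The causes of the changes were not tested. Of 314 ratios of single members under an alternative, 271 stayed inside the counting interval of the reported ratio and 42 left it. The Il12b ratio in T cell-like cells reversed to 0 without the richest barcode of each library, an alternative chosen after seeing the data. The count of members highest in mature DC-like cells stayed at 9 in both libraries under every alternative run for it. Leiden clusters are not independent of the members, which were not excluded from the genes that built them. Leiden clusters gave no pDC-like value, since that cluster was mixed. No paired analysis was possible because each diet has 1 library and the labels give no replicate numbers, and for the same reason no replicate could be left out.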

Other observations

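Ccl17-bearing cells often held Cd40. In mature DC-like cells of the sitagliptin library, Cd40 was seen in 15 of 20 cells with Ccl17 and 6 of 13 without, and in the control library in 13 of 23 with and 4 of 18 without. In cDC2-like cells, Cd40 was seen in 13 of 25 cells with Ccl17 and 12 of 30 without in the sitagliptin library, and in 3 of 8 with and 6 of 33 without in the control library. Cells with more UMIs hold more genes of any kind, and the part of depth in these counts was not tested. Il12b was seen in 12 of 20 mature DC-like cells with Ccl17 and 6 of 13 without in the sitagliptin library, and in 12 of 23 and 6 of 18 in the control library.

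Relb was read in T cell-like cells of each kind. Those with a Foxp3 UMI had 23 Relb UMIs in 21 cells of the sitagliptin library and 3 in 7 cells of the control library. Those with Cd8a or Cd8b1 UMIs but no Foxp3 or Cd4 had 87.1 CPM in the sitagliptin library and 84.3 CPM in the control library. The gene for CD40 ligand, Cd40lg, had 7 UMIs in the sitagliptin library and 1 in the control library in T cell-like cells with Cd4 but no Foxp3, Cd8a or Cd8b1, and 0 in the Cd8 cells of both.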
